A study of Homo sapiens with 3 samples.

Results

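The apolipoprotein L (APOL) family was followed in 5 genes, APOL1, APOL2, APOL3, APOL4 and APOL6, all on chromosome 22. They were chosen by symbol, as the transcript name without its final number on a reference chromosome, and all 5 were found among 60471 genes. The choice was made with values of these same libraries known, namely the FPKM of the 3 libraries that are given below. The levels below are therefore a description, with no test. Cells were HaCaT, an immortalized human keratinocyte line, labelled WT in the control and SRSF5 knockdown in the other libraries. They had been transfected with 10 nM of a control siRNA, of siRNA No.1 against SRSF5 or of siRNA No.2 against SRSF5, named siRNA 1 and siRNA 2 here. The targeted gene encodes an SR protein, one of the RNA-binding factors that guide splice site choice. Each transfection gave 1 library, so there were 3 libraries, no group had a replicate and the time after transfection is not stated in the labels.

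APOL proteins are amphipathic proteins that act on membranes. APOL1 carries a signal peptide, circulates on high density lipoprotein and lyses trypanosomes by forming channels, while the other members lack such a signal and work inside the cell. The genes arose by duplication, lie close together, and several are induced by interferons and by tumour necrosis factor.

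Expression was deposited as FPKM, by name sequenced fragments scaled to transcript length and library size, for each of 247012 transcripts. The values themselves equal counted bases scaled to transcript length and to the counted bases summed over all transcripts of the library. A base shared by several transcripts enters that sum more than once. Depth was 18319683 (control), 17704648 (siRNA 1) and 15861267 (siRNA 2) read equivalents, each of 100 counted bases, summed over the transcript with the most bases of every gene. SRSF5 was lower in both knockdown libraries, with a summed FPKM of 94.1, 44.3 and 18.7 for control, siRNA 1 and siRNA 2. Keratinocyte markers were all measured (8 of 8), with a summed highest-transcript FPKM of 1312, 1531 and 2816 in the same order. The corresponding sums were 0.772, 1.71 and 1.77 for 6 fibroblast markers, 0.705, 0.586 and 0.786 for 4 endothelial markers, 0.155, 0.174 and 0.149 for 4 leukocyte markers and 0.0908, 0.0647 and 0.124 for 4 melanocyte markers, of which MLANA and TYRP1 were at 0. Mitochondrial transcripts took 13.7%, 14.8% and 10.0% of the counted bases. The keratinocyte markers went both ways with siRNA 2: 4 of 8 were above the control (KRT14, DSG3, TP63 and KRT5, log2 ratios 2.15, 1.43, 1.16 and 0.64) and 4 below (ITGA6, KRT15, SFN and ITGB4, -0.82, -0.21, -0.16 and -0.11). KRT14 accounts for most of the higher sum with siRNA 2, at a highest-transcript FPKM of 382, 554 and 1670. With siRNA 1, 5 of the 8 were above the control and 3 below it, and KRT15 was at a log2 ratio of -1.52. The part of these markers in the values below was not tested. For mitochondrial RNA, only a rescaling with its genes left out was made. It gave log2 ratios to the control (siRNA 1, then siRNA 2) of 1.17 and -1.92 for APOL1, against 1.14 and -1.84 with them. For APOL2 it gave 1.31 and -0.28, against 1.28 and -0.22. Any part of mitochondrial RNA beyond this rescaling was not tested. In bulk RNA fewer cells expressing a gene and less RNA per cell cannot be told apart.

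The cluster ran over 619 kb, from APOL6 at chr22:35648446-35668404 on the plus strand, through APOL3 at chr22:36140330-36166177, APOL4 at chr22:36189124-36204840 and APOL2 at chr22:36226209-36239954, all on the minus strand, to APOL1 at chr22:36253010-36267530 on the plus strand (GRCh38). APOL2 and APOL1 point away from each other with 13.1 kb between them. Compared per length in the control, by the FPKM of the highest transcript, the order was APOL6 at 9.15, APOL2 at 2.00, APOL1 at 1.62, APOL3 at 0.157 and APOL4 at 0.00906. With siRNA 1 the order was the same, and with siRNA 2 it was too, but the distance between APOL2 and APOL1 had widened. Sums over transcripts do not give this order, because the files list 1 transcript for APOL6, 9 for APOL2, 12 each for APOL1 and APOL4 and 21 for APOL3, and transcripts of a gene share reads.

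**Figure D1:**
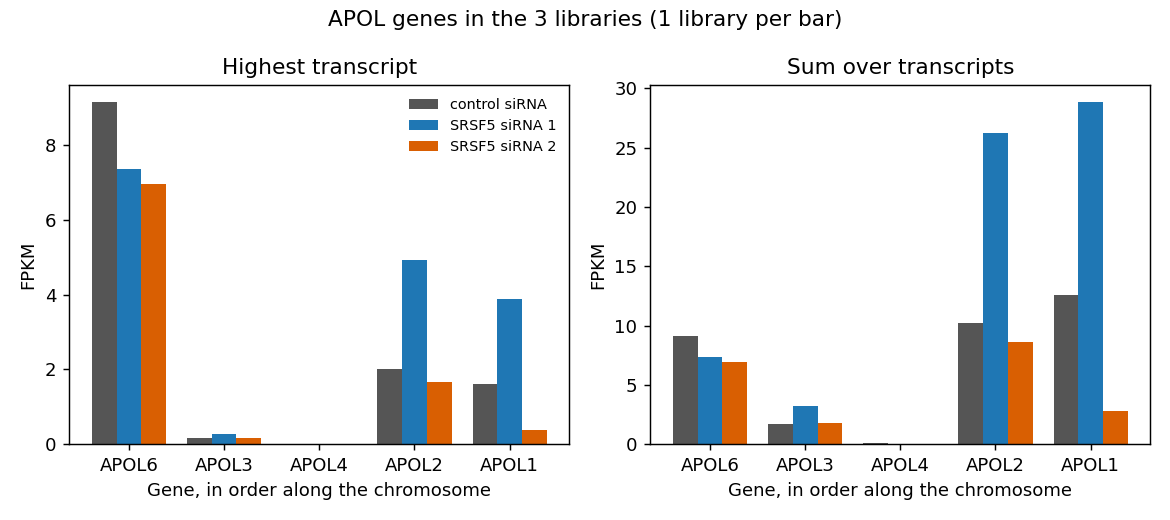
FPKM of the 5 APOL genes in the 3 libraries, as the highest transcript of each gene (left) and as the sum over its transcripts (right), 1 bar per library and genes in chromosomal order. APOL2 and APOL1 are highest with siRNA 1, and APOL1 is lowest with siRNA 2 at 0.381 (highest transcript) and 2.78 (sum).

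APOL1 had a highest-transcript FPKM of 1.62 in the control, 3.90 after siRNA 1 and 0.381 after siRNA 2, in each case from APOL1-203. Its summed FPKM was 12.5, 28.9 and 2.78. The siRNA 1 library was above the control and the siRNA 2 library below it. The log2 ratio to the control, on the scale of summed FPKM plus 1, was 1.14 with siRNA 1 and -1.84 with siRNA 2, and between the siRNAs it was -2.98 (siRNA 2 over siRNA 1). The transcript with the most counted bases, APOL1-201, held 139 read equivalents in the control, 331 after siRNA 1 and 33.9 after siRNA 2. Its own log2 ratio was 1.32 (95% exact interval 1.04 to 1.62) with siRNA 1 and -1.93 (-2.51 to -1.37) with siRNA 2. These intervals and those below cover counting error only, treat read equivalents as independent molecules and say nothing of how far a repeated transfection would differ.

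Among 13913 genes with a mean summed FPKM of at least 1, APOL1 had the second lowest ratio of siRNA 2 to siRNA 1 (2 genes at or below its value). On the scale of summed FPKM plus 1, which also gave that rank, APOL1 was 1 of 2 genes at least 2-fold above the control with siRNA 1 and at least 2-fold below it with siRNA 2. The other was CDRT1, with log2 ratios of 1.23 and -2.02. This count depends on the scale. B4GALNT1 missed the limit at 0.96 and -1.29, with a summed FPKM of 15.1, 30.3 and 5.61 for control, siRNA 1 and siRNA 2. On highest-transcript FPKM plus 1, APOL1 itself missed it at 0.90 and -0.92. The reverse pattern was met by 2 genes, CEMIP and RASSF8. APOL1 was picked with these ratios known, so its rank is a description only.

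**Figure D2:**
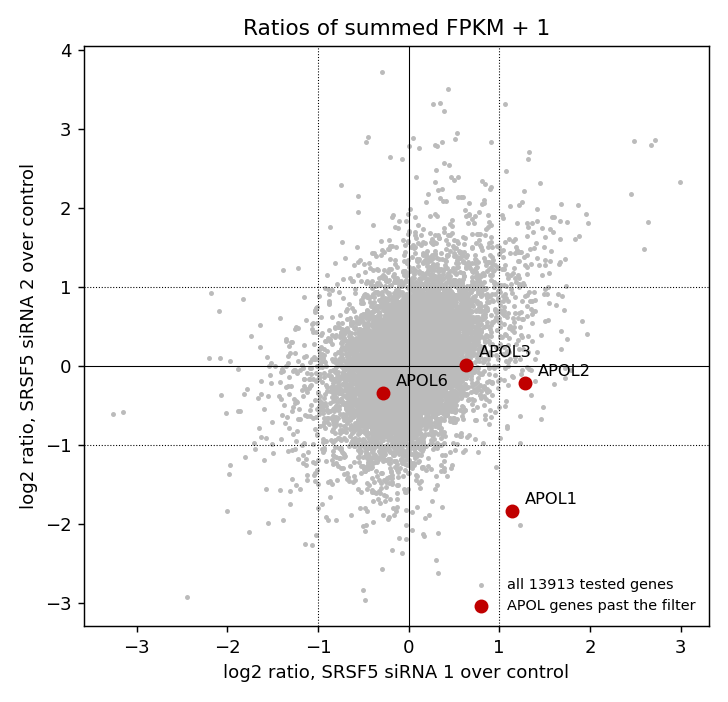
log2 ratios of summed FPKM plus 1 for all 13913 tested genes (grey) and the 4 APOL genes past the filter (red), siRNA 1 over control on the horizontal axis and siRNA 2 over control on the vertical axis, with dotted lines at 2-fold. APOL1 lies at 1.14 and -1.84, APOL2 at 1.28 and -0.22, APOL3 at 0.64 and 0.02 and APOL6 at -0.28 and -0.35, and both axes share the 1 control library.

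All 12 listed APOL1 transcripts were above the control with siRNA 1 and below it with siRNA 2. Their ratios to the control ran from 2.05 to 2.51 with siRNA 1 and from 0.176 to 0.263 with siRNA 2, so coding, decay-targeted and intron-retaining forms differed in the same direction. The 6 transcripts that end before the last exon, and so hold the 5′ part of the gene, stood at 17.6% to 19.3% of the control with siRNA 2. The 6 that reach into the last exon stood at 21.8% to 26.3%. With siRNA 1 the first set had ratios of 2.05 to 2.18 and the second 2.26 to 2.51. The 21.8% and the 2.26 came from APOL1-207, which ends at chr22:36265315 and so holds only part of the last exon. With siRNA 2 the transcripts that end before the last exon held only 3.25 (APOL1-212) to 4.26 (APOL1-211) read equivalents each, and APOL1-207 6.42. The difference between the sets was not tested, and nothing is read from it at this depth. A base was counted for every transcript it overlaps, so these 12 values are not separate evidence.

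The shared counting allowed an APOL1 exon to be read by subtraction. APOL1-205 contains every base of APOL1-206 plus a stretch of 39 bases and an exon of 54 bases. That exon (chr22:36257083-36257136, plus strand, GRCh38) is listed in 10 of the 12 APOL1 transcripts and is coding in 9 of them in GENCODE 29. Its length equals 18 codons. The exon is shown in capitals between 15 coding bases of each neighbouring exon, because it is a coding part of the listed APOL1 mRNA that carried no bases here:
APOL1 exon: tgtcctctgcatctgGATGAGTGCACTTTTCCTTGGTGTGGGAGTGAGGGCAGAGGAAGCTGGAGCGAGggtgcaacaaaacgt

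APOL1-205 and APOL1-206 held the same number of bases in each library, 13915 in the control, 33024 after siRNA 1 and 3387 after siRNA 2. Both stretches together therefore held 0 bases in all 3 libraries. At the mean depth of APOL1-206 (4.96, 11.8 and 1.21 bases per position) the exon would have held 268, 635 and 65.1 bases. APOL1-212 covers the 5′ part of the gene and is listed as a retained-intron form, so its positions can include intron. At its depth over its 546 positions outside the exon (3.66, 7.32 and 0.595 bases per position), the exon would have held 198, 395 and 32.1. Exons at 0 were also met elsewhere in these files. A pair of transcripts separated 465 internal exons at a depth of at least 2 bases per position in at least 1 library. Of these, 15.9% held 0 bases in all 3 libraries, and of 74 such exons of 40 to 70 bases 18.9% did. APOL1-206 lay above that limit in the control and siRNA 1 libraries, so these shares were not taken at its depth. Why the exon held no bases was not tested, and with siRNA 2 fewer bases than 1 read equivalent would have been met there at either depth. The pair of transcripts, the exon and the split by the last exon were chosen after their values were seen.

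APOL2, an intracellular member, had a highest-transcript FPKM of 2.00 in the control, 4.94 after siRNA 1 (both from APOL2-202) and 1.66 after siRNA 2 (from APOL2-203). Its summed FPKM was 10.2, 26.3 and 8.65. The siRNA 1 library was the high one, while control and siRNA 2 lay close together. The log2 ratio was 1.28 with siRNA 1, -0.22 with siRNA 2 and -1.50 between the siRNAs. APOL2-202, the transcript with the most counted bases together with APOL2-201, held 217, 507 and 152 read equivalents, and its ratio to the control was 2.47 (95% exact interval 2.10 to 2.90) with siRNA 1 and 0.755 (0.611 to 0.935) with siRNA 2.

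The APOL2 transcripts were split by their listed type after their values were seen. The 5 coding transcripts stood at 2.43 to 2.58 times the control with siRNA 1 and at 72.2% to 88.5% with siRNA 2. The 4 transcripts listed as lncRNA, which use exons near the 5′ end of the gene, were at 3.02 to 5.44 times the control with siRNA 1 and at 1.23 to 2.59 times with siRNA 2. The noncoding forms rest on few reads, and with siRNA 2 their distance from the control was not detectable at this depth. APOL2-205, APOL2-207 and APOL2-208 each held the same 7.50 read equivalents in the control and 8.55 with siRNA 2. APOL2-206 held 3.08, 15.9 and 7.38 read equivalents, and its ratios had intervals of 1.61 to 30.1 with siRNA 1 and 0.575 to 15.1 with siRNA 2. The 54-base exon of APOL1 has a counterpart of the same length in APOL2 (chr22:36233402-36233455, minus strand), identical at 44 of 54 positions and noncoding in APOL2-201. It is listed in 5 of the 9 APOL2 transcripts.

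**Figure D3:**
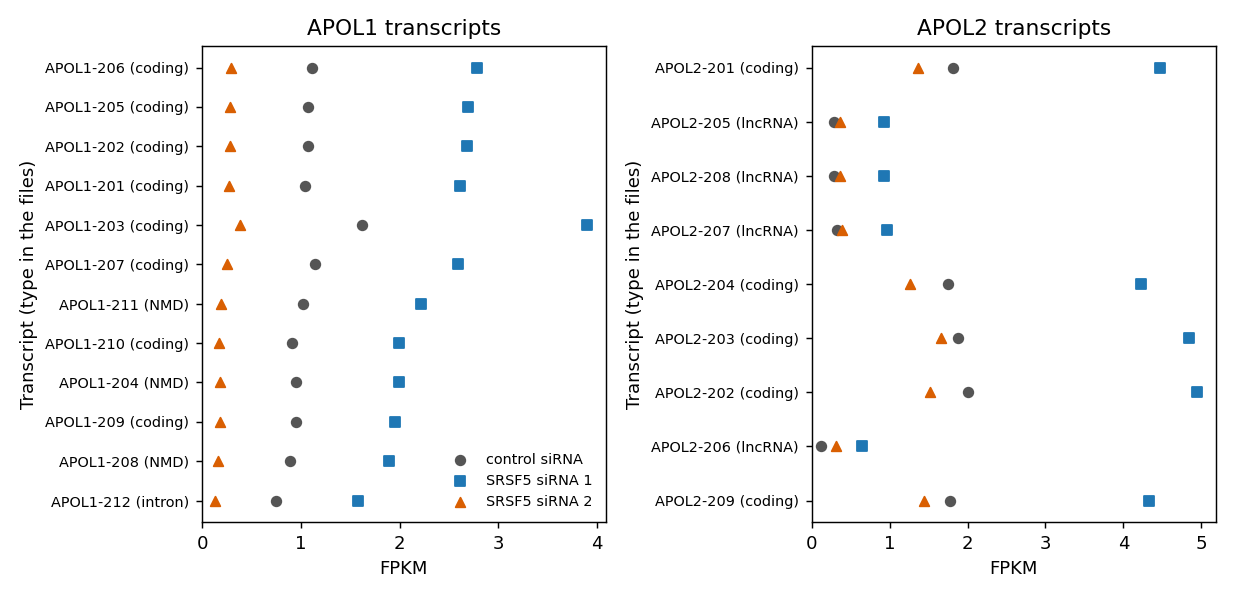
FPKM of each listed transcript of APOL1 (left, 12 transcripts) and APOL2 (right, 9 transcripts) in the control (circles), siRNA 1 (squares) and siRNA 2 (triangles) libraries, with the transcript type given in the files (NMD, nonsense-mediated decay; intron, retained intron). Every APOL1 transcript has siRNA 2 lowest and siRNA 1 highest. For APOL2, siRNA 2 is below the control in the 5 coding transcripts. It is at 1.23 to 2.59 times the control in the 4 lncRNA transcripts, which hold few reads.

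Within a library the ratio of APOL1 to APOL2 does not depend on scaling between libraries. By highest transcript APOL1 was at 0.810 of APOL2 in the control, 0.789 after siRNA 1 and 0.230 after siRNA 2. The neighbours kept nearly the same proportion in the control and siRNA 1 libraries, and a different one with siRNA 2. Of all 100-base words in the listed APOL1 sequences 0 occur in another member, and of 50-base words 14 of 3785 occur in APOL2 and 9 in APOL3, so full-length reads of the members are distinct.

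APOL3, which disrupts the membranes of bacteria in interferon-activated cells, was far lower per length. Its highest-transcript FPKM was 0.157 in the control (APOL3-208), 0.276 after siRNA 1 (APOL3-218) and 0.169 after siRNA 2 (APOL3-208). Its summed FPKM was 1.72, 3.22 and 1.75, high with siRNA 1 and near equal in the other libraries. The log2 ratio was 0.64 with siRNA 1 and 0.02 with siRNA 2. APOL3-209, with the most counted bases, held only 8.73, 14.2 and 9.48 read equivalents. Its log2 ratio of 0.78 with siRNA 1 had an interval of -0.60 to 2.10, and that of 0.23 with siRNA 2 one of -1.40 to 1.62, so no difference was detectable at this depth. The siRNA 1 value of APOL3-218 came from 344 bases, against 34 in the control and 36 with siRNA 2.

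APOL4, an intracellular member, was near the limit of detection. Its summed FPKM was 0.0760 in the control, 0 after siRNA 1 and 0.0391 after siRNA 2. In its transcript with the most counted bases these were 61, 0 and 18 bases, less than 1 read equivalent, and a count of 0 allows an FPKM of up to 0.0226 with siRNA 1 (3 read equivalents). No ratio is given for APOL4, and its 12 listed transcripts repeat the same few bases.

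APOL6, a member that kills cells when overexpressed, was the most abundant per length. Its 1 listed transcript of 10065 bases stood at 9.15 in the control, 7.36 after siRNA 1 and 6.97 after siRNA 2, the control being the highest. The log2 ratios were -0.28 and -0.35, and on the transcript itself without the added 1 they were -0.31 (95% exact interval -0.38 to -0.25) and -0.39 (-0.46 to -0.32), from 4108, 3133 and 2896 read equivalents. Thus APOL6, the most deeply covered member, was less than 1.5-fold from the control with either siRNA. APOL1 was at 0.177 of APOL6 in the control, 0.529 after siRNA 1 and 0.0547 after siRNA 2.

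The remaining human genes of the family were read from the same files. APOL5, between APOL6 and APOL3, was listed at 0 in the control and with siRNA 2 and at 0.00822 with siRNA 1, from 50 bases. APOLD1 on chromosome 12, which carries an APOL domain, had coding transcripts at 0.290 (APOLD1-201) and 0.292 (APOLD1-202) in the control. These stood at 0.369 and 0.368 with siRNA 1 and at 0.209 and 0.204 with siRNA 2. Its higher APOLD1-203 and APOLD1-204 values overlap exons of DDX47 on the same strand and were not read as APOLD1.

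Counted over the family, 2 of 5 members (APOL1 and APOL2) were at least 2-fold above the control with siRNA 1, where 1.7% of all tested genes were, and 0 were below it, against 1.33% (3.03% in either direction). With siRNA 2, 1 of 5 (APOL1) was at least 2-fold below the control, against 2.83% of tested genes, and 0 were above it, against 4.49% (7.32% in either direction). Between the siRNAs, 2 of 5 (APOL1 and APOL2) were at least 2-fold lower with siRNA 2, against 2.88% of tested genes, and 0 were higher, against 3.97% (6.85% in either direction). The median over the 5 members was 0.64 with siRNA 1 and -0.22 with siRNA 2, beside medians of -0.02 and 0.05 over all tested genes. Of the 5 members 4 passed the filter on low values and APOL4 did not. Over these 4 the medians were 0.89 with siRNA 1 and -0.28 with siRNA 2. Since the members were picked with these contrasts known, nothing is read from the counts. The added 1 weighs on low values: on the scale of highest-transcript FPKM plus 1, APOL1 stood at 0.90 and -0.92 and APOL2 at 0.98 and -0.18. There 0 of 5 members reached 2-fold from the control with either siRNA. Of the 11541 genes past the filter on that scale, 2.02% did with siRNA 1 and 4.69% with siRNA 2.

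The genes around the cluster were read for comparison. Of 8 neighbours within 250 kb with a mean summed FPKM of at least 1, 0 were at least 2-fold apart in any of the 3 comparisons, where 3.03%, 7.32% and 6.85% of all tested genes were, so a count of 0 among 8 does not set them apart. Their log2 ratios ran from -0.24 to 0.35 with siRNA 1 and from -0.21 to 0.79 with siRNA 2. MYH9, the nonmuscle myosin heavy chain gene that follows APOL1, was at a highest-transcript FPKM of 195 in the control, 173 after siRNA 1 and 212 after siRNA 2. The quartiles over all tested genes with siRNA 2 were -0.27 and 0.36, and RBFOX2, EIF3D and MIR6819 lay above the upper one. RBFOX2, a splicing regulator that lies inside the cluster between APOL6 and APOL3, was at 3.34, 4.40 and 5.81, and its log2 ratio of 0.79 with siRNA 2 was the highest of the 8. The others were MCM5 (-0.06 with siRNA 2), MIR6819 (0.40, within MYH9), the pseudogene RPS15AP38 (0.19), TXN2 (-0.13), FOXRED2 (-0.21) and EIF3D (0.43).

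**Figure D4:**
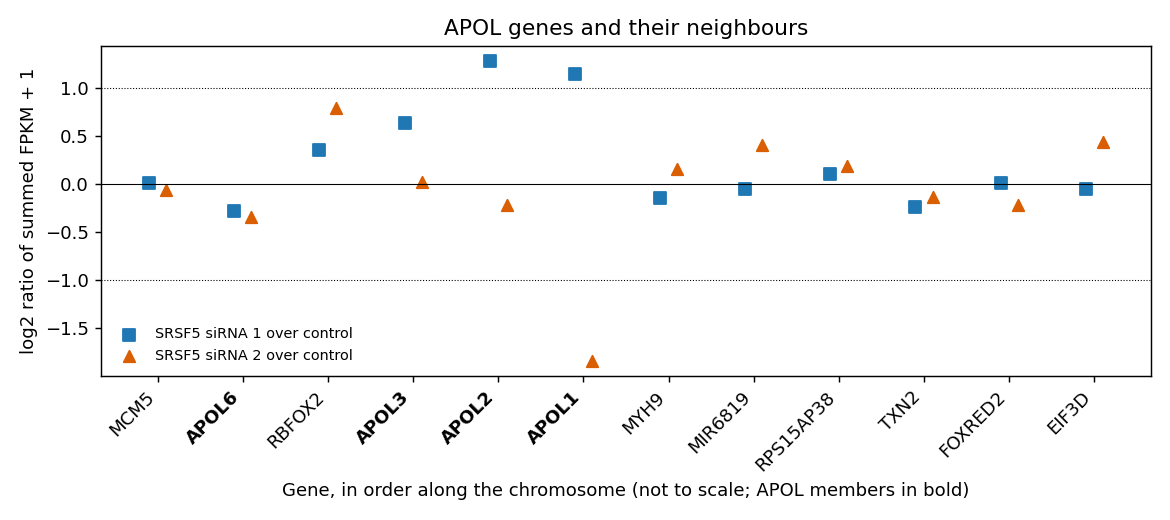
log2 ratio of summed FPKM plus 1 to the control for siRNA 1 (squares) and siRNA 2 (triangles), for the APOL genes past the filter (bold) and the neighbours within 250 kb, in chromosomal order and not to scale. The 8 neighbours lie between -0.24 and 0.79, with APOL2 and APOL1 above 1 for siRNA 1 and APOL1 at -1.84 for siRNA 2.

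Interferon and NF-κB signalling, which induces APOL genes in other cells, was read from a list of 26 genes. Of these 26, all tested, 0 were at least 2-fold higher and 2 lower with siRNA 1, and 2 were higher and 0 lower with siRNA 2 (medians -0.09 and 0.00). Over all tested genes the shares at least 2-fold higher and lower were 1.7% and 1.33% with siRNA 1 and 4.49% and 2.83% with siRNA 2, and nothing is read from the small counts in this list and the 3 that follow. IRF9, which completes the interferon-activated ISGF3 complex, was at a summed FPKM of 11.6, 5.12 and 12.6 for control, siRNA 1 and siRNA 2, and NFKB1 at 28.6, 12.9 and 25.5. Both were lowest with siRNA 1, where 15 of the 26 genes were below the control and 11 above it. A link between these genes and the APOL levels was not tested. The feedback inhibitors SOCS1 (0.973, 0.896 and 4.98) and SOCS3 (2.90, 2.07 and 8.13) were highest with siRNA 2.

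Of 24 interferon-gamma induced defence genes listed, 22 were found by symbol and 15 were tested. Their medians were 0.06 with siRNA 1 and -0.69 with siRNA 2. With siRNA 1, 1 was at least 2-fold higher and 0 lower, and with siRNA 2 1 was higher and 1 lower. In direction alone, 8 of the 15 were above the control and 7 below it with siRNA 1, and 3 above and 12 below with siRNA 2. GBP1, a guanylate-binding GTPase that coats bacteria, was at a summed FPKM of 3.10, 9.49 and 2.96, high with siRNA 1 like APOL2. GBP2 was at 4.59, 7.26 and 13.4, highest with siRNA 2, and the proteasome subunit gene PSMB10 at 32.0, 23.0 and 10.2, lowest there.

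Of 26 other apolipoproteins and lipoprotein handling genes, 7 passed the filter, 11 were listed at 0 in all 3 libraries and the rest lay below it. With siRNA 1 2 were at least 2-fold higher and 0 lower, and with siRNA 2 1 was higher and 1 lower (medians 0.24 and -0.20). APOE, a lipid carrier, was at a summed FPKM of 0.838, 2.85 and 2.45, and the cholesterol-esterifying enzyme LCAT at 2.26, 6.58 and 5.55, above the control with both siRNAs and low in all 3 libraries. APOO, a mitochondrial cristae protein, was at 27.2, 20.4 and 8.29. HPR and APOA1, which share the trypanolytic particle with APOL1, were listed at 0 in the 3 libraries. Of 15 genes described as APOL partners or acting in membrane traffic, all tested, 0 were at least 2-fold from the control with either siRNA (medians -0.18 and 0.15). ATG9A, an autophagy membrane protein, was at 59.9, 73.4 and 33.1.

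The tested genes nearest to APOL1 in their pair of log2 ratios were named by the smallest Euclidean distance over 3 libraries, which is too few to rank likeness. They were CDRT1 (distance 0.20), the ganglioside synthase gene B4GALNT1 (0.58), the transporter gene ABCB6 (0.78), the cystine transporter gene SLC7A11 (0.84) and PKD2 (0.84), which encodes polycystin-2. CDRT1 had a highest-transcript FPKM of 1.31, 3.31 and 0.191 for control, siRNA 1 and siRNA 2, and B4GALNT1 1.46, 3.72 and 0.553. Their order over the libraries is that of APOL1, which the choice by distance fixed.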

How the data were processed

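Per the labels, RNA of HaCaT cells transfected with 10 nM siRNA was made into libraries with a SMARTer mRNA kit. The authors deposited FPKM per transcript, per the file headers. Per the submitters' processing notes the builds named include GRCh38.p12 beside the mouse builds GRCm38 and mm10, with no role stated. An aligner or counting tool is not given in the sources used here. Exons of 53 of 55 member transcripts equal those of GENCODE 29 (GRCh38), and 53 had the same identifier and version.

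Multiplying FPKM by length gave whole multiples of a library's step for 100% of values (tolerance 0.05), and these multiples were read as bases. In genes with 1 transcript 43.5%, 44.7% and 43.8% of base counts were multiples of 100, which set the read equivalent at 100 bases. Among 31 pairs of member transcripts where 1 contains the other, the longer held fewer bases in 0, so reads were counted for each transcript they overlap. The placing of multiply matching reads is not stated.

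FPKM was summed per gene symbol on reference chromosomes. Ratios are log2(summed FPKM + 1), and genes with a mean of at least 1 FPKM were tested against a 2-fold limit. With 1 library per group there was no test and no p-value. Intervals are exact (Clopper-Pearson) at 95% on read equivalents of the transcript with the most bases. Scripts were tested on simulated data (Python 3.11.15, pandas 2.3.3, scipy 1.17.1).

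The members and 4 gene lists (interferon and NF-κB signalling, interferon-gamma induced defence, other apolipoproteins, APOL partners) and the cell type markers were chosen with earlier results of these data known. Named were the members, APOL5, APOLD1, SRSF5, expressed neighbours within 250 kb, list members at least 2-fold apart in any comparison (at most 6 a list) and the 5 genes nearest to APOL1. CEMIP, RASSF8, HPR, APOA1 and DDX47 were named after their values were seen.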

Additional observations from a re-analysis of the deposited data

Results flagged for a closer look

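APOL1 lay on opposite sides of the control with the 2 siRNAs, at a log2 ratio of 1.14 with siRNA 1 and -1.84 with siRNA 2, and the counting intervals of its transcript with the most bases left out 0 in both. APOL2 was at 1.28 with siRNA 1 and at -0.22 with siRNA 2, close to the control and between the quartiles of all tested genes (-0.27 and 0.36). The ratio of APOL2-202 alone was -0.41 with siRNA 2 (interval -0.71 to -0.10), while 4 of 9 APOL2 transcripts were above the control. Each value is 1 library against the same 1 control library, so the difference between the siRNAs was not tested.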

How the results depend on the processing

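With 1 library per group no library could be left out. No paired analysis was possible because each group held 1 library and no fit was made. The direction of every ratio of APOL1, APOL2 and APOL6 held under all 5 alternatives tried for single genes (pseudocount 0.1, highest transcript, mean over transcripts, median scaling, mitochondrial genes left out). APOL3 with siRNA 2 moved around 0, from -0.02 to 0.03, and with siRNA 1 its 0.64 became 0.14 for the highest transcript and 0.09 for the mean. APOL1 ranged from 0.74 to 1.20 with siRNA 1 and from -2.13 to -0.73 with siRNA 2, and APOL2 from 0.88 to 1.35 with siRNA 1. The count of members at least 2-fold apart became 0 with siRNA 1 and 0 with siRNA 2 for the highest transcript and for the mean, and 1 between the siRNAs for the mean, where the added 1 weighs more. Without it the highest-transcript ratios to the control with siRNA 1 are 2.40 for APOL1 and 2.47 for APOL2. Genes at least 2-fold apart numbered 421 with siRNA 1, 1019 with siRNA 2 and 953 between the siRNAs, of 13913 (3.03%, 7.32% and 6.85%). With a pseudocount of 0.1 they were 735, 1541 and 1468 of 13913 (5.28%, 11.1% and 10.6%). By the highest transcript they were 233, 541 and 551 of 11541 (2.02%, 4.69% and 4.77%). For the mean they were 186, 439 and 425 of 10287 (1.81%, 4.27% and 4.13%). The other 22 of 36 counts, with the filter at 5 FPKM and no filter among the alternatives, stayed within 1.5 times. Shares did not always do so: with no filter they were 0.71%, 1.78% and 1.68% of 60471 genes. Depth limits APOL3 and APOL4, at 14.2 read equivalents or fewer in the transcript with the most bases.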
